A study of Mus musculus with 3 samples.

Results

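AP-1 and immediate early genes were described across 3 RNA-seq libraries of the mouse large intestine. The 10 genes were chosen by symbol: Fos, Fosb, Fosl1, Fosl2, Jun, Junb, Jund, Atf3, Egr1 and Ier2, out of 24091 genes listed. All 10 were found in every library. The libraries came from C57BL/6 mice and were labelled as lymphatic endothelial cells, sorted with CD31, podoplanin and LYVE1 among the markers. They form 1 group of 3, called replicates 1, 2 and 3 here, and the labels name no treatment, genotype, age or undigested control. Whether the libraries came from separate animals is not stated, and their spread may thus be a technical one. Values are TPM, a transcript level corrected for gene length and library size. Comparisons between different genes rest on that correction, and how it was computed is not given in the sources used here. Means are given ± SD over 3 libraries (n = 3).

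Immediate early genes are switched on within minutes of a stimulus, without new protein synthesis, by transcription factors already present in the cell. MAP kinases activate the ternary complex factors that sit with SRF on serum response elements, and other kinases activate CREB on cAMP response elements. FOS and JUN proteins are bZIP factors that bind DNA as the dimer AP-1. FOS proteins need a JUN partner, whereas JUN proteins can also pair with each other and with ATF proteins. These genes are also known to respond to tissue digestion and cell sorting, and with no undigested sample that part was not tested.

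The promoters were compared first, because shared control by SRF and CREB is the textbook trait of this group. RefSeq promoter windows (GRCm38.p6, 250 bases before to 50 after the start site) matched 7 of the 10 genes: Fos, Fosb, Fosl2, Jun, Junb, Jund and Atf3. The core cAMP response motif TGACG, searched on both strands, was present in 4 of these 7 windows (Fos, Fosb, Junb and Atf3), and in 20.8% of all 32851 windows. The sequences below are printed 5′ to 3′ on the gene's strand with this motif in capitals. Atf3 carries it on the opposite strand, so that its reverse complement CGTCA is seen.
Fos at chr12:85473814-85473838, plus strand: ttccgcccagTGACGtaggaagtcc
Fos at chr12:85473751-85473775, plus strand: ggcgtagagtTGACGacagagcgcc
Fosb at chr7:19310091-19310115, minus strand: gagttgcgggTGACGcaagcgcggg
Junb at chr8:84978840-84978864, minus strand: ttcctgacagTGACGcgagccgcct
Atf3 at chr1:191183334-191183350, minus strand: aatagcattaCGTCAgc
The first base in capitals lay at -66 and -129 in Fos, -60 in Fosb, -106 in Junb and -7 in Atf3, counted from the start that the promoter table uses. For Fosb this start, at 19310045, lies 73 bases inside the RefSeq gene span given below, so its printed bases are upstream of that start but within the span. The Fos promoter also held the TATA box motif TATAAA at -33, shown here because it is the core promoter motif that usually lies at about this distance from a start.
Fos at chr12:85473847-85473872, plus strand: acagcgcttcTATAAAggcgccagct
TATAAA was present in 2 of the 7 windows (Fos and Junb) and in 13.6% of all windows. In Junb it began at base 1 of the annotated transcript.

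Longer motifs were not found in these windows. The full cAMP response element TGACGTCA, which contains TGACG, was in 0 of 7 member windows and in 1.79% of all windows. The AP-1 site TGANTCA was in 0 of 7 and 7.81%, the EGR site GCGTGGGCG in 0 of 7 and 0.612%, and the core of the serum response element, known as the CArG box, in 0 of 7 and 1.63%. These letters are not in these windows, which says nothing of sites farther away. For Jund the RefSeq start at 70697739 lies upstream of the start of the only GENCODE M21 coding transcript, at 70698949. The Jund window ends at 70697788, so the bases next to that GENCODE start were not searched for any motif. The 250 bases before the RefSeq start had a GC content of 47.6%. In the other 6 genes these bases had 58.4% to 68.8%, against a median of 52.4% over all windows.

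The transcripts of early genes are also known for fast decay through AU-rich elements. In the 3′ UTR of the longest GENCODE M21 coding transcript, Fosl2 held 8 copies of the pentamer ATTTA, Fos and Jun 4 each, Atf3 3, Egr1 and Junb 2 each, Fosb, Fosl1 and Jund 1 each, and Ier2 0. Per 1000 bases, Fos had the most, at 4.89, and Junb 4.10, against a median of 1.34 over 11614 expressed genes with a 3′ UTR of at least 100 bases. Expressed means a TPM of 1 or more in each library throughout. The density was above that median in 8 of the 10 genes, with Fosb (0.466) and Ier2 (0) below it. By plain count, 4 of the 10 genes held 3 or more copies, beside 38.2% of the 11614, so the counts were near that share. The longer element TTATTTATT, which contains ATTTA, was present in 2 of the 10, Fos and Fosl2, and in 7.96% of the 11614.

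Most of the 10 genes were abundant. Of the 10 members, 9 were expressed (53.4% of all genes), 7 had a TPM of 10 or more in each library (31.7%) and 4 of 100 or more (5.26%). The median member stood at 65.7, the median expressed gene at 17.0. In the order of mean TPM the genes ran Jund, Ier2, Jun, Junb, Fos, Fosl2, Egr1, Atf3, Fosb and Fosl1, and the highest and lowest of these means were 1769-fold apart. Jun and Junb changed places in replicate 2, and the order was otherwise identical in each library.

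**Figure D1:**
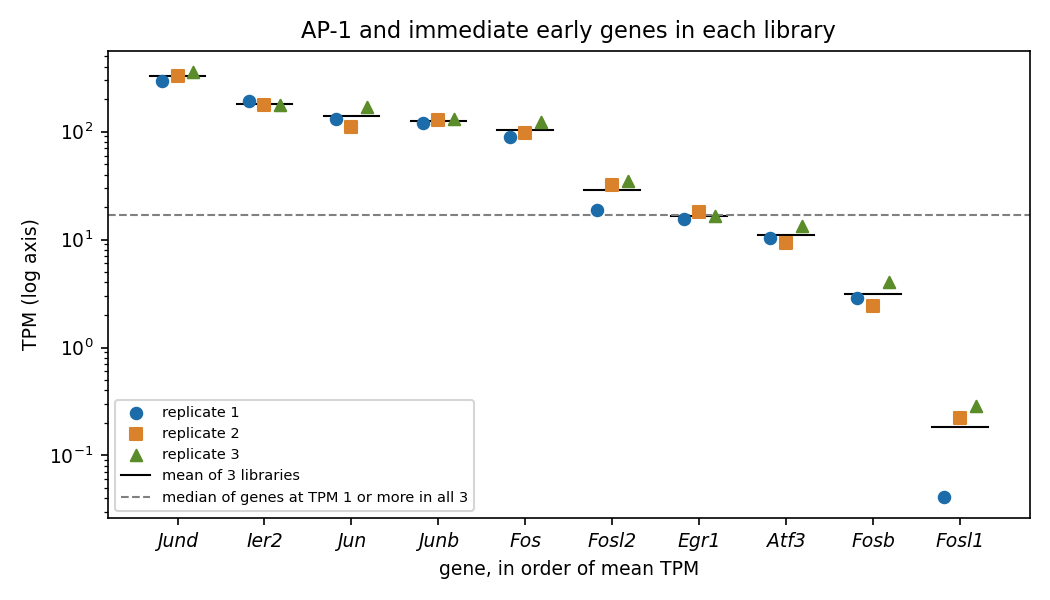
TPM of each member (log axis) in each of the 3 libraries, with the mean as a black bar and the median of expressed genes as a dashed line. Jund, Ier2, Jun, Junb and Fos lie above 85 in every library, and Fosl1 lies below 0.3 in every library.

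The JUN genes encode the partner that every AP-1 dimer of the FOS type needs. Jund (Entrez 16478, chromosome 8, 70697739 to 70700616 in mm10), known as the JUN gene with the steadiest transcription, was the highest member, with 295, 325 and 356 TPM in replicates 1, 2 and 3 (325 ± 30.6). It ranked 418 of 24091 genes. Jun (Entrez 16476, chromosome 4, 95049036 to 95052222) had 132, 111 and 171 TPM (138 ± 30.1), so replicate 3 was the highest and replicate 2 the lowest. Junb (Entrez 16477, chromosome 8, 84976909 to 84978748), whose product can restrain JUN in some settings, was much steadier, with 121, 128 and 130.3 TPM (127 ± 4.79). The ranges of Jun and Junb overlapped, while the lowest Jund value lay above every Jun and Junb value. Jund made up 53.8%, 57.6% and 54.2% of the summed JUN family TPM in the 3 libraries.

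Among the FOS genes, which encode the partners that cannot pair with themselves, Fos was dominant. Fos (Entrez 14281, chromosome 12, 85473890 to 85477274) had 89.6, 96.1 and 123 TPM (103 ± 17.8), with replicate 3 apart from the other libraries. Fosl2 (Entrez 14284, chromosome 5, 32136472 to 32157840), which encodes FRA2, had 18.8, 31.9 and 35.0 TPM (28.5 ± 8.61), and here it was replicate 1 that stood apart, below the others. Fosb (Entrez 14282, chromosome 7, 19302696 to 19310118) had 2.88, 2.44 and 4.003 TPM (3.11 ± 0.804). Fos exceeded Fosb 31.1-fold, 39.3-fold and 30.8-fold in the 3 libraries. Fosl1 (Entrez 14283, chromosome 19, 5447698 to 5455938), which encodes FRA1, was the only member below a TPM of 1, with 0.0416, 0.223 and 0.287. By an estimate from the steps between low TPM values, these Fosl1 levels rest on about 2, 11 and 13 fragments, and those of Fosb on about 335, 251 and 377, so the 6.90-fold range of Fosl1 between libraries comes from few fragments. Fos made up 80.5%, 73.6% and 75.8% of FOS family TPM, and Fosl2 most of the rest, with 16.9%, 24.4% and 21.5%.

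JUN transcripts outweighed FOS transcripts in every library. The JUN family summed to 548, 565 and 657 TPM and the FOS family to 111, 131 and 162 TPM. The ratio was 4.93, 4.32 and 4.04 (4.43 ± 0.450), always above 4. Without Jund, the sum of Jun and Junb still exceeded the FOS family, with a ratio of 2.28, 1.83 and 1.85. As a difference of means of log2(TPM + 1), the JUN genes exceeded the FOS genes by 4.03 ± 0.14. This measure weights each gene equally, so the low Fosl1 and Fosb pull the FOS mean down. It is therefore not the log2 of the ratio of sums. Transcript levels do not give protein levels or dimers.

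**Figure D2:**
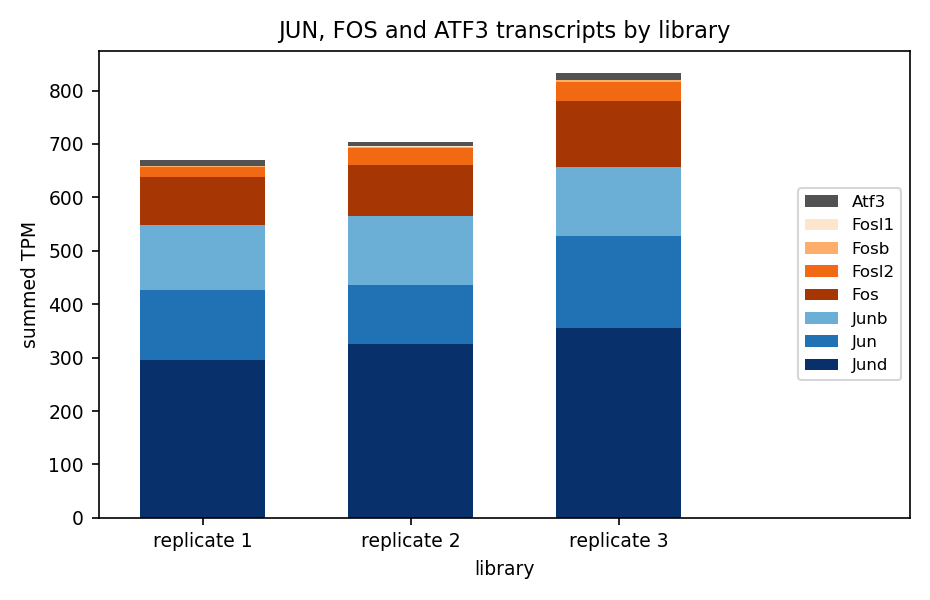
Stacked bars of the TPM of the 8 bZIP members in each library, from 0, with JUN genes in blue, FOS genes in orange and Atf3 in grey. The JUN genes take 78.9% to 81.8% of the stack and Jund alone 42.8% to 46.1%.

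The remaining members belong to other families. Ier2 (Entrez 15936, chromosome 8, 84661331 to 84662852), which encodes a small nuclear protein of early response, was the steadiest of the abundant members after Junb, with 190.1, 176 and 177 TPM (181 ± 8.01). Egr1 (Entrez 13653, chromosome 18, 34861207 to 34864956), a zinc finger factor that is usually induced together with Fos, had 15.6, 17.9 and 16.6 TPM (16.7 ± 1.16). Egr1 was close to the median expressed gene, at percentile 49.5 of expressed genes, whereas Fos lay at percentile 89.3 and Ier2 at 94.0. Fos exceeded Egr1 5.75-fold, 5.37-fold and 7.42-fold, and Ier2 exceeded it 12.2-fold, 9.83-fold and 10.6-fold. Atf3 (Entrez 11910, chromosome 1, 191170296 to 191183333), a stress-induced bZIP factor that pairs with JUN proteins, had 10.4, 9.29 and 13.3 TPM (10.99 ± 2.07).

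Neighbours in the order of levels were compared within each library. An exact sign-flip permutation (two-sided) over 3 libraries gives no p under 0.25, so a pair was called apart where the log2 ratio had 1 sign in all libraries and its mean exceeded its SD. By this rule 8 of the 9 neighbouring pairs were apart. The order and the calls come from the same values, so the calls only describe these libraries. Jun and Junb were not, with log2 ratios of 0.12, -0.21 and 0.39. Junb and Fos were apart as a ratio (0.31 ± 0.20, log2) although their ranges of TPM overlapped. Ier2 over Jun (0.41 ± 0.32) was the pair whose ratio was nearest to its SD among those called apart, and in replicate 3 it was 0.05.

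The spread between libraries differed among the members. For genes with a mean TPM of 1 or more, the SD of log2(TPM + 1) was ranked among genes of the same 1 of 20 expression bins. Fosl2 lay at percentile 95.7 (SD 0.47), Jun at 92.8 (SD 0.31), Fos at 79.6 (SD 0.24) and Jund at 66.8 (SD 0.14). Junb (SD 0.05) and Egr1 (SD 0.09), both at percentile 17.35, and Ier2 (percentile 21.3, SD 0.06) were among the steadier genes of their level, and Atf3 (57.6) and Fosb (54.3) lay near the middle. The median over these 9 members was percentile 57.6. Without replicate 3 it was 36.8, and without replicate 1 it was 73.9.

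Replicate 3 held the highest value of most members. Of the 9 expressed members, 7 were highest in replicate 3 (40.5% of all expressed genes), 1 in replicate 1 (17.1%) and 1 in replicate 2 (42.4%). None of the 9 was lowest in replicate 3 (22.9%), 5 were lowest in replicate 1 (63.2%) and 4 in replicate 2 (13.9%). These lowest counts depended on the scaling. Median-of-ratios scaling divides each library by its median ratio to the genes' geometric means. With it, 1 member was lowest in replicate 1 (37.4% of expressed genes), 6 in replicate 2 (24.9%) and 2, Egr1 and Ier2, in replicate 3 (37.7%). Against the mean of replicates 1 and 2 on the log2(TPM + 1) scale, replicate 3 was higher by 0.50 for Fosl2, 0.49 for Jun, 0.45 for Fosb, 0.41 for Fos and 0.40 for Atf3. The median of all expressed genes was 0.09, with quartiles of -0.06 and 0.26. The gap between replicates 1 and 2 was smaller than the step to replicate 3 for Jun (0.25), Fosb (0.17), Atf3 (0.14) and Fos (0.10), but not for Fosl2 (0.73).

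The step was smaller or absent in the other members. Replicate 3 differed from the mean of the other libraries by 0.20 in Jund, 0.06 in Junb, -0.01 in Egr1 and -0.05 in Ier2. For Jund this exceeded the gap of 0.14 between replicates 1 and 2, and for Junb, Egr1 and Ier2 it did not exceed theirs. Scaling mattered here, because median-of-ratios scaling moved the median of all expressed genes from 0.09 to -0.02. Under it the step was 0.38 for Fosl2, 0.37 for Jun, 0.35 for Fosb, 0.29 for Atf3, 0.28 for Fos and 0.08 for Jund, and -0.06 for Junb, -0.12 for Egr1 and -0.17 for Ier2, so Junb changed sign. With that scaling 6 of 9 members were highest in replicate 3, beside 30% of all expressed genes.

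**Figure D3:**
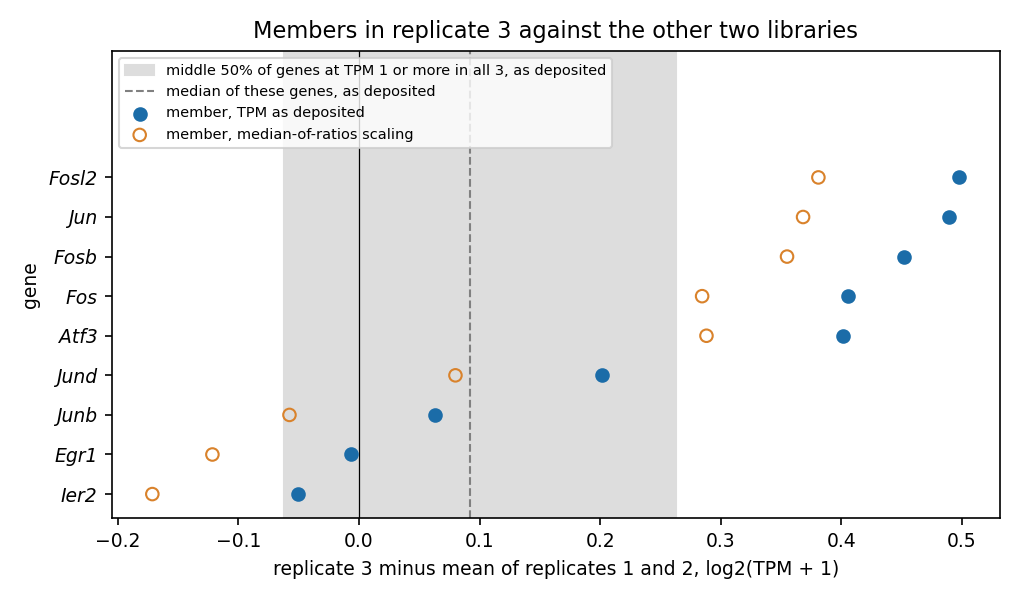
Difference of replicate 3 from the mean of replicates 1 and 2 in log2(TPM + 1) for the 9 expressed members, as deposited (filled) and after median-of-ratios scaling (open), with the middle 50% of such genes in grey. Fosl2, Jun, Fosb, Fos and Atf3 lie to the right of the grey band as deposited, and Jund, Junb, Egr1 and Ier2 lie inside it.

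Marker genes moved between the libraries too, and values in whole libraries cannot be assigned to a cell type. All 10 lymphatic markers were expressed (53.4% of all genes). Their sum was 1653, 1728 and 955 TPM in replicates 1, 2 and 3, which was lowest in replicate 3. Prox1, the transcription factor that defines lymphatic identity, was the lowest of the 10 at 3.58 ± 1.12. The highest were Lyve1 (490 ± 156) and Mmrn1 (336 ± 114). All 12 epithelial markers were expressed, with sums of 16752, 20523 and 21386 TPM, which far exceeded the lymphatic sum in every library. The levels of the members are therefore those of whole libraries and not of lymphatic cells alone. Fibroblast markers summed to 189, 130 and 477 TPM (8 of 8 expressed), smooth muscle and pericyte markers to 231, 185 and 411 (8 of 8), macrophage and dendritic cell markers to 304, 225 and 595 (8 of 9), lymphocyte and plasma cell markers to 68.2, 143 and 206 (7 of 10), and granulocyte and mast cell markers to 3.07, 6.10 and 8.13 (1 of 7). All of these sums except the lymphatic were highest in replicate 3. For the epithelial list, 6 of the 12 genes were highest in replicate 2 and 5 in replicate 3. Its median step in replicate 3 was 0.13 on the log2(TPM + 1) scale. That of the fibroblast list was 1.53, and that of all expressed genes 0.09. Blood endothelial markers summed to 792, 714 and 700.0 TPM (10 of 10), but single genes moved in opposite ways: on the log2(TPM + 1) scale replicate 3 was higher by 1.97 for Ackr1, 1.83 for Flt1, 1.38 for Vwf and 1.36 for Plvap, and differed by -1.04 for Gpihbp1 and -0.81 for Emcn. No marker was at 0 in all 3 libraries. Fewer cells of a type and less RNA per cell cannot be told apart in such data. The part of these marker shifts in the higher Jun, Fos, Fosb and Atf3 of replicate 3 was not tested.

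**Figure D4:**
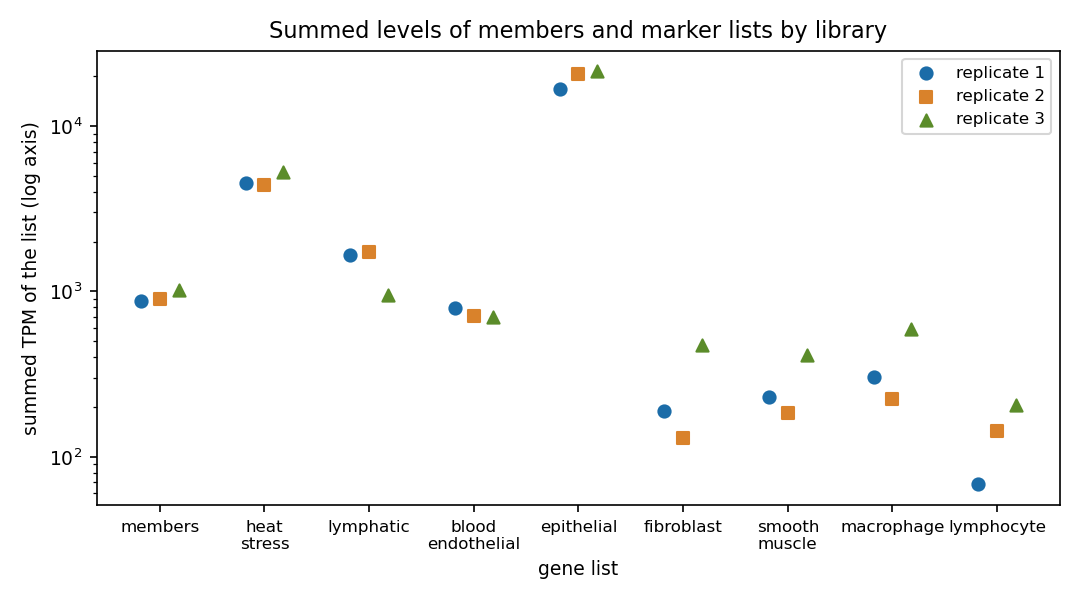
Summed TPM (log axis) of the 10 members, of heat shock genes and of cell type marker lists in each library. In replicate 3 the lymphatic sum is the lowest of the 3 libraries at 955, while the heat shock, epithelial, fibroblast, smooth muscle, macrophage and lymphocyte sums and the members' sum (876, 898 and 1026 TPM) are the highest. The blood endothelial sum is the lowest there.

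Other early response genes were then set beside the members. Of 38 such genes, 31 were expressed (53.4% of all genes) and 5 reached 100 in each library (5.26%), with a median of 24.5. The highest were Klf4 (203 ± 45.4), Rhob (180.2 ± 10.9), which encodes a small GTPase, Mcl1 (159 ± 17.8), which encodes a survival factor, Nfkbia (142 ± 17.0), which encodes the inhibitor of NF-kappaB, and Cebpb (134 ± 19.7), itself a bZIP gene. Among the 31, 14 were highest in replicate 3 (40.5% of all expressed genes) and 11 lowest (22.9%). Their median step in replicate 3 was 0.03. Cebpb went lower there by 0.38 and Nfkbia by 0.24 on the log2(TPM + 1) scale, against higher by 0.34 for Klf4 and 0.25 for Mcl1. For Klf4 (150.6, 225 and 233 TPM) it was replicate 1 that stood apart, below the others.

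The relatives of Egr1 were low. Egr2 (0.314 ± 0.0736) and Egr3 (0.139 ± 0.122) stayed below a TPM of 1 in every library, and Egr4 was listed at 0 in all 3. Of the NR4A nuclear receptor genes, another early family, Nr4a1 (11.1 ± 2.26) stood near Atf3, with Nr4a2 at 3.91 ± 1.51 and Nr4a3 at 0.194 ± 0.101. Ier5 (31.6 ± 0.434), a gene named like Ier2 for its early response, differed little between libraries. These relatives were chosen after their values were seen.

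Factors upstream of the members were present at moderate levels. All 20 genes of the list were expressed (53.4% of all genes), with a median of 23.3. Mapk3, which encodes ERK1, was the highest (350 ± 30.5), followed by Rps6ka1 (119 ± 22.7), Map2k1 (102 ± 19.8) and Map2k2 (102 ± 3.01), the last pair encoding the kinases that activate ERK1. Srf itself stood at 19.8 ± 2.83 and Creb1 at 10.4 ± 2.24. Of the ternary complex factors, Elk3 (41.5 ± 8.52) and Elk4 (37.2 ± 3.13) exceeded Elk1, the lowest gene of the list (4.21 ± 1.64). Replicate 1 was the lowest library for 18 of the 20 genes, beside 63.2% of all expressed genes. With median-of-ratios scaling it was the lowest for 13 of the 20, beside 37.4%.

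Genes that dampen the response were lower than Fos. All 15 feedback genes were expressed (53.4% of all genes), 0 reached 100 in each library (5.26%), and the median was 13.7. Dusp1, which encodes a MAP kinase phosphatase that is itself an early gene, was the highest at 58.6 ± 4.48, followed by Dusp6 (44.8 ± 3.33), Spry2 (23.8 ± 0.743), Nab1 (21.7 ± 3.74) and Dusp2 (20.1 ± 6.44). Dusp10 was the lowest (1.48 ± 0.593). The ratio of Fos to Dusp1 was 1.42, 1.64 and 2.28 in replicates 1, 2 and 3, and that of Fos to Zfp36, which encodes a protein that destabilises AU-rich transcripts, was 1.54, 1.53 and 1.74. Dusp1 had 63.1, 58.6 and 54.1 TPM, so it was lowest in the library in which Fos was highest. Of the 15 feedback genes, 8 were highest in replicate 3 (40.5% of all expressed genes). In the same library 2, Dusp1 and Dusp2, were lowest (22.9%). Their list had a median step of 0.15 on the log2(TPM + 1) scale, against 0.09 over all expressed genes. The EGR corepressor gene Nab2 (5.28 ± 0.708) stayed below Egr1 in each library, with a ratio of Egr1 to Nab2 of 3.20, 3.67 and 2.73.

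Other bZIP genes spanned much of the members' range. Of 22, 20 were expressed (53.4% of all genes), with a median of 19.6. Atf4, a factor of the integrated stress response, was the highest (214 ± 15.6), followed by Nfe2l2 (133 ± 16.1), which encodes NRF2, Nfe2l1 (69.5 ± 7.16), Maf (37.1 ± 7.48) and Mafk (33.2 ± 3.66). Bach2 was the lowest, at 0.885 ± 0.277. Batf, whose product competes with FOS for JUN partners, was low, at 1.45 ± 0.467. Atf4 exceeded Atf3 in every library, with 224, 221 and 196 TPM, and was lowest in replicate 3, where Atf3 was highest.

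Textbook AP-1 targets had a lower median than the members. Of 16, 10 were expressed (53.4% of all genes) and 6 stayed below a TPM of 1 throughout. The median was 4.68, against 2.48 over all listed genes and 17.0 over expressed genes. Vim (636 ± 121), Ccnd1 (71.0 ± 4.02), Mmp14 (52.5 ± 4.70), Cd44 (26.04 ± 3.97) and Plaur (22.3 ± 3.41) were the highest, and Mmp10 was the lowest (0.0866). Vim had 749.7, 649 and 509 TPM and was thus lowest in replicate 3, while Cd44 (22.9, 24.7 and 30.5 TPM) was highest there.

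Heat shock genes, which are also known to respond to tissue digestion, were more abundant than the members. All 11 were expressed (53.4% of all genes), each above a TPM of 10 in each library (31.7%), with a median of 245. They were led by Hspa8 (1842 ± 210.4), Hsp90ab1 (1121 ± 54.0), Hspa1b (397 ± 107), Hspe1 (341 ± 17.9) and Hspa1a (264 ± 65.1). Hsph1 was the lowest (50.8 ± 12.1). Replicate 3 was the highest library for 9 of the 11, beside 40.5% of all expressed genes, with TPM as deposited. The step in replicate 3 was 0.63 for Hspa1b, 0.58 for Hspa1a and 0.55 for Hsph1 on the log2(TPM + 1) scale, which lay above those of Jun and Fos. Hspe1 (-0.11) and Hspd1 (-0.03) did not share it.

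**Figure D5:**
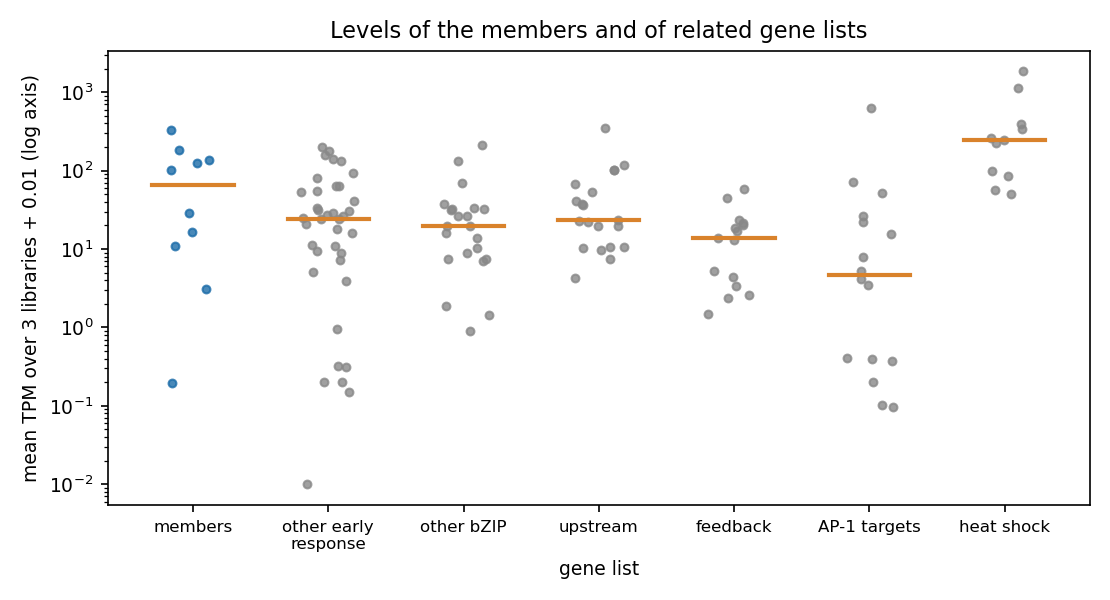
Mean TPM over 3 libraries of every gene of the members and of 6 related lists (log axis, 0.01 added so that the gene listed at 0 can be drawn), with the list median in orange. The members' median of 65.7 lies below that of the heat shock list (245) and above those of the other 5 lists (4.68 to 24.5).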

How the data were processed

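RNA-seq of 3 libraries of sorted mouse cells was read from 1 deposited table per library. The authors deposited TPM values, per the file headers, for 24091 genes with Entrez ID and symbol, with sums of 999939, 999907 and 999896. Per the submitters' processing notes, mm10, Cell Ranger 6.0.1 and HTSeq were used, in no stated role. How TPM was computed and with which annotation is not given in the sources used here. Reads of genes with several transcripts or overlaps may therefore have been assigned in ways that shift a level. TPM keeps no depth. From 3115 single-transcript genes, TPM times length (less 200 bases) fell on regular steps (phase score 0.593, 0.555 and 0.627, where 1 means exact steps), which gave 32.5, 28.7 and 26.3 fragments for a TPM of 1 on 1000 bases; fragment numbers are estimates, and no counting interval was made from them.

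The members and lists were chosen with earlier results of these data known. No test between groups was possible with 1 group, and no p-value is given for the members. Levels are described by library, mean and SD; logs are log2(TPM + 1). Of the table's IDs, 24045 matched RefSeq GRCm38.p6, all 10 members included. The rule for named genes takes the members, the 5 highest and the lowest gene of each related list, and a set of marker genes. That set holds the highest genes of each marker list with Prox1, Epcam, Pecam1, Flt1 and Ptprc. Of it only Prox1, Lyve1, Mmrn1, Flt1 and Gpihbp1 are named singly, and marker lists are given as sums. A gene that this rule covers is not reported here. Further genes (such as Ackr1, Vwf, Plvap, Emcn, Srf, Creb1, Elk3, Elk4, Zfp36, Nab2, Batf, Hspd1, and the EGR, NR4A and IER relatives) were chosen after their values were seen. The fragment estimate and the ATTTA count were added after the data were examined. A planned comparison of protein regions was not made. Alternatives were other scalings, pseudocounts, TPM thresholds and leaving out each replicate. The spread and library-order steps were tested on simulated data. Python 3.11.15, numpy 2.4.6, pandas 2.3.3 and matplotlib 3.10.9 were used.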

Additional observations from a re-analysis of the deposited data

How the results depend on the processing

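The median member level of 65.7 TPM became 82.8 when TPM was rescaled without 88 ribosomal protein genes, which raises every gene, and 65.0 with median-of-ratios scaling. Leaving out each replicate gave 59.1 to 71.5. Of the 10 single levels, 8 moved by more than their SD under the rescaling without ribosomal protein genes and 0 under median-of-ratios scaling. That scaling divides replicates 1, 2 and 3 by 0.901, 1.06 and 1.06, so a mean over the libraries could change little. Without any 1 replicate 0 moved, but leaving out 1 of 3 libraries cannot move a mean by more than its SD. These zeros therefore do not show that the levels are stable. The JUN to FOS ratio ranged from 4.18 to 4.62 when each replicate was left out. The median percentile of spread was 55.9 to 64.4 under the other scalings, pseudocount and filters, and 36.8 to 73.9 without each replicate. Neighbouring pairs called apart numbered 7 to 8 of 9 without each replicate. Members at the expression threshold numbered 9 at a TPM of 0.5 and 8 at 5, and those highest in replicate 3 numbered 7 without ribosomal protein genes and 6 with median-of-ratios scaling. No paired analysis was possible because the series has 1 group. Depth limits mainly Fosl1.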
